A study of Homo sapiens with 12 samples.

Results

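NR4A1, NR4A2 and NR4A3 make up the NR4A group of nuclear receptors, and they were followed here as 3 of the 19901 protein-coding genes in an RNA-Seq count table of HCT116 KAP1-dTAG cells. The members were chosen by name as all genes of the group, and all 3 were among the 13093 genes that passed the filter on low counts (at least 10 counts in at least 6 of 12 libraries). HCT116 is a human colorectal carcinoma line. In the cells used, a tag was fused to KAP1 (TRIM28 protein), and the small molecule dTAG links the tag to a ubiquitin ligase so that the protein is destroyed. All libraries came from 1 clone (KAP1_dTAG_CloneD5), so the tagged allele and any trait of that clone were shared by treated and control cells.

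Cells of every group went without serum for 48 h. DMSO, the solvent, or dTAG was present for the last 8 h, and serum was then added for 30 min or withheld. This gave 4 groups of 3 libraries from separate biological replicates, called DMSO-S0 and dTAG-S0 without serum and DMSO-S30 and dTAG-S30 with serum. The design asked how the response to serum differs once KAP1 has been depleted.

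NR4A proteins are called orphan receptors because their ligand-binding pocket is filled by bulky side chains, and they act without a classical hormone ligand. Their amount is therefore set largely by transcription of their genes, which are immediate early genes (IEGs) that respond within minutes to growth factors, hormones and stress without new protein synthesis. The proteins bind DNA as monomers at the NBRE element or as dimers, and NR4A1 and NR4A2 also pair with RXR. NR4A1 (Nur77) is known for roles in apoptosis and T cell biology, NR4A2 (Nurr1) for dopamine neurons, and NR4A3 (NOR-1) for smooth muscle proliferation and, as a gene fusion, for a form of chondrosarcoma. Cyclic AMP response elements bound by CREB are known features of NR4A promoters.

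NR4A1 (ENSG00000123358.19) lies on the plus strand of hg38 chromosome 12 from 52022832 to 52059507, NR4A2 (ENSG00000153234.13) on the minus strand of chromosome 2 from 156324432 to 156342348, and NR4A3 (ENSG00000119508.17) on the plus strand of chromosome 9 from 99821855 to 99866891. Reads were counted over whole genes with introns, and exons in GENCODE v44 make up 19.9%, 22.9% and 14.0% of the 3 spans. NR4A3 lies wholly within the long non-coding RNA gene STX17-DT on the opposite strand, and NR4A1 shares 1045 bp with NR4A1AS, also on the opposite strand. It is not given in the sources used here whether reads were assigned by strand, so reads of these partners cannot be told from those of NR4A3 and NR4A1. NR4A2 overlaps no other GENCODE gene.

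The promoter of NR4A3 is shown because NR4A3 had the largest Log2FC with serum of the 13093 genes tested and its window is dense in CRE half-sites, the 5-base core TGACG of the CREB element. The stretch is chr9:99821635-99821854 on the plus strand of GRCh38.p14, from RefSeq, with the half-sites of either strand in capitals.
NR4A3 promoter: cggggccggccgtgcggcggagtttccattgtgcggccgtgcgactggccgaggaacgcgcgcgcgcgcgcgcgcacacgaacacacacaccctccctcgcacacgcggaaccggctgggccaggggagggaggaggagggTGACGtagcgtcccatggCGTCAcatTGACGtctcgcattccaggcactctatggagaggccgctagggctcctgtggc
Over the 250 bases before the RefSeq start, TGACG was found 4 times on the 2 strands together, at 109, 91, 83 and 25 bases before the start, of which the printed stretch holds the first 3. The site at 25 bases (99821860 to 99821864) lies inside the NR4A3 span given above, which begins at 99821855. TGACG occurred at least once in 21.2% of 35116 such windows, and 4 or more times in 83 windows (0.236%). The window was shown for this density, so these shares describe it and are not separate evidence. The NR4A3 window held no match to the full palindrome TGACGTCA (found in 1.65% of windows), to the NBRE AAAGGTCA (1.05%), to the AP-1 site TGANTCA (6.57%), to the GC box GGGCGG (42.6%) or to a CArG box, the element of SRF (1.16%). Windows of 2 of the 3 genes, NR4A3 and NR4A1, were searched. The RefSeq table held no window for NR4A2, so its promoter could not be searched. It held 2 windows for NR4A1, both before more upstream starts than the GENCODE canonical start at 52051442. Neither reaches the 250 bases before that canonical start, which were not searched. Among these motifs the 2 windows held 1 GC box and nothing else, which does not describe the canonical NR4A1 promoter. A match is a description of letters and was not tested as a binding site.

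In DMSO-S0 cells NR4A1 measured 11.3, 12.2 and 11.5 CPM (counts relative to the scaled size of the library) in replicates 1 to 3, and in dTAG-S0 cells 16.3, 14.5 and 13.6. In DMSO-S30 cells it measured 676, 688 and 729, and in dTAG-S30 cells 666, 599 and 672. The 6 libraries with serum lay far above the 6 without, the dTAG libraries above the DMSO libraries without serum, and the dTAG libraries below them with serum.

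NR4A2 measured 35.3, 33.9 and 34.2 CPM in DMSO-S0 and 39.0, 35.5 and 45.8 in dTAG-S0. With serum it measured 946, 972 and 1069 CPM in DMSO-S30 and 924, 836 and 877 in dTAG-S30. The order of the groups was that of NR4A1, and no dTAG library reached into the range of the DMSO libraries at either serum state, although dTAG-S0 replicate 2 exceeded DMSO-S0 replicate 1 only narrowly.

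NR4A3 was close to silent without serum, at 1.17, 1.24 and 1.28 CPM in DMSO-S0 and 1.08, 1.30 and 2.21 in dTAG-S0, which are 22 to 53 counts per library. With serum it measured 726, 736 and 835 CPM in DMSO-S30 and 686, 546 and 653 in dTAG-S30. Without serum the DMSO and dTAG libraries overlapped and dTAG-S0 replicate 3 alone stood above 2 CPM, while with serum every dTAG library was below every DMSO library.

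**Figure D1:**
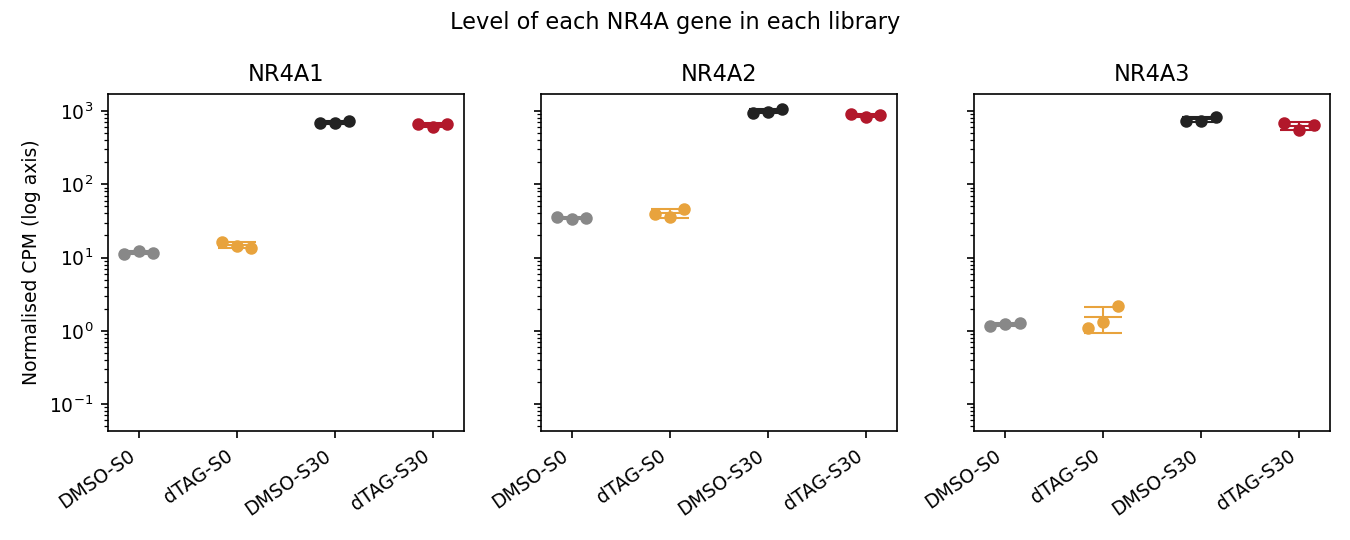
Normalised CPM of NR4A1, NR4A2 and NR4A3 (log axis) in the 12 libraries, with 1 point per library and bars for mean ± SD (n = 3). The 3 genes start from different levels without serum, at means from 1.23 to 34.5 CPM in DMSO-S0, and reach 698 to 996 CPM in DMSO-S30.

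Ranked by mean CPM among the 13093 genes tested, NR4A3 stood at 12239, NR4A1 at 9721 and NR4A2 at 6722 in DMSO-S0, and at 111, 122 and 71 in DMSO-S30. With 30 min of serum NR4A2 took 0.0974% of the counts of genes, NR4A3 0.0749% and NR4A1 0.0683%.

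These ranks and shares of counts take no account of gene length, so levels were compared between the genes per kb, first of counted gene span. Without serum the order in DMSO-S0 was NR4A2 (1.92 CPM per kb), NR4A1 (0.318) and NR4A3 (0.0272). In DMSO-S30 NR4A2 remained highest at 55.6 ± 3.61 CPM per kb (SD, n = 3), while NR4A1 at 19.0 ± 0.757 and NR4A3 at 17.0 ± 1.34 overlapped in range. In dTAG-S30 the values were 49.1 ± 2.44 for NR4A2, 17.6 ± 1.10 for NR4A1 and 14.0 ± 1.63 for NR4A3, and the last 2 did not overlap. Per kb of exon the order of those 2 with serum was the opposite: NR4A3 measured 121 ± 9.57 CPM per kb of exon and NR4A1 95.6 ± 3.8 in DMSO-S30. Which of the 2 is the more abundant with serum therefore depended on the length used.

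Serum raised all 3 NR4A genes in DMSO-treated cells, where 27.3% of the genes tested were called (adjusted p under 0.05), 9.39% higher and 17.9% lower. NR4A3 rose 613-fold (95% interval 500 to 751), with a log2 fold change (Log2FC) of 9.26 ± 0.143 (SE, n = 3 per group) that ranked 1 of 13093 (edgeR quasi-likelihood test, adjusted p = 3.18e-27). NR4A1 rose 59.2-fold (52.6 to 66.7), with a Log2FC of 5.89 ± 0.0833 and rank 9 (edgeR adjusted p = 7.02e-28). NR4A2, the highest of them before serum, rose 29.0-fold (25.6 to 32.8), with a Log2FC of 4.86 ± 0.0869 and rank 15 (edgeR adjusted p = 1.20e-25). In 3 of 3 DMSO-S30 libraries each gene was above every DMSO-S0 library, as were 13.8% of all genes tested.

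In dTAG-treated cells, where 25.5% of the genes tested were called, 9.3% higher and 16.2% lower, the order was the same. NR4A3 rose 406-fold (336 to 491, Log2FC 8.67 ± 0.133, edgeR adjusted p = 3.16e-27) and again ranked 1. NR4A1 rose 43.8-fold (39.2 to 49.0, Log2FC 5.45 ± 0.0781, edgeR adjusted p = 9.65e-28) and ranked 8. NR4A2 rose 21.9-fold (19.5 to 24.6, Log2FC 4.45 ± 0.0819, edgeR adjusted p = 2.55e-25) and ranked 16. The rise in CPM, unlike the fold, is little affected by the low starting level. It was 686 ± 27.8 (SD, n = 3) for NR4A1 in DMSO-treated and 631 ± 40.2 in dTAG-treated cells (92.0% of the DMSO rise), 961 ± 64.6 and 839 ± 44 for NR4A2 (87.3%), and 764 ± 60.4 and 627 ± 73.5 for NR4A3 (82.0%).

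In cells without serum none of the 3 genes passed the threshold for dTAG, where 1.47% of genes tested were called, 0.962% higher and 0.512% lower. At an unadjusted p under 0.05 the number was 2 of 3, against 1595 of all 13093 genes tested, and DESeq2 called 1 of 3. NR4A1 averaged 11.7 ± 0.447 CPM (SD, n = 3) in DMSO-S0 and 14.8 ± 1.37 in dTAG-S0, a Log2FC of 0.34 ± 0.0903 or 26.1% (10.9% to 43.5%; edgeR adjusted p = 0.0614). The call for NR4A1 turned on the processing, since 5 of 9 alternatives passed the threshold, with Log2FC between 0.31 and 0.38 over all 9. NR4A2 averaged 34.5 ± 0.731 and 40.1 ± 5.24 CPM, a Log2FC of 0.22 ± 0.0825 or 16.7% (3.75% to 31.2%; edgeR adjusted p = 0.225). NR4A3 averaged 1.23 ± 0.0557 and 1.53 ± 0.597 CPM, a Log2FC of 0.32 ± 0.279 or 25.2% (−15.9% to 86.3%; edgeR adjusted p = 0.697). Without dTAG-S0 replicate 3 the sign for NR4A3 turned, to a Log2FC of -0.055, and with 22 to 53 counts per library no effect of that size was detectable at this depth. NR4A1 and NR4A2 did not overlap between the groups, with dTAG higher, as was so for 8.5% of all genes tested. An exact permutation test on CPM gave p = 0.1 for both and p = 0.7 for NR4A3, where 0.1 is the smallest p that 3 against 3 libraries allow.

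In cells with serum none of the 3 genes passed the threshold either, where 1.25% of genes tested were called, 0.611% higher and 0.642% lower. Here 2 of 3 were under an unadjusted p of 0.05, against 1380 of all 13093 genes tested, and DESeq2 called 0 of 3. NR4A1 averaged 698 ± 27.8 CPM (SD, n = 3) in DMSO-S30 and 646 ± 40.2 in dTAG-S30, a Log2FC of -0.10 ± 0.0633 or −6.62% (−14.7% to 2.18%; edgeR adjusted p = 0.632). NR4A2 averaged 996 ± 64.6 and 879 ± 43.7 CPM, a Log2FC of -0.19 ± 0.0713 or −12.1% (−20.5% to −2.66%; edgeR adjusted p = 0.291). NR4A3 averaged 766 ± 60.4 and 628 ± 73.5 CPM, a Log2FC of -0.27 ± 0.0837 or −17.0% (−26.3% to −6.50%; edgeR adjusted p = 0.140). The call for NR4A3 turned on the processing, since 2 of 9 alternatives and 3 of 12 fits with a library left out passed the threshold, and without dTAG-S30 replicate 1 its Log2FC was -0.43 (edgeR adjusted p = 0.0143). All 3 genes were lower in each dTAG library than in any DMSO library, as were 8.1% of all genes tested. The exact permutation test on CPM gave p = 0.1 for each, the smallest it can give.

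The interaction, the serum effect in dTAG-treated cells minus that in DMSO-treated cells, was below 0 for all 3 genes and called for none, where 0.0458% of genes tested (6 genes) were called. At an unadjusted p under 0.05 it was 2 of 3, against 439 of all 13093 genes tested, and DESeq2 called 0 of 3. NR4A1 had an interaction of -0.43 ± 0.112 (SE), a difference of −26.0% in the serum fold (−36.9% to −13.1%; edgeR adjusted p = 0.397). NR4A2 had -0.41 ± 0.111 (−24.6%, −35.7% to −11.7%; edgeR adjusted p = 0.492). NR4A3 had -0.59 ± 0.293 (−33.7%, −56.3% to 0.592%; edgeR adjusted p = 0.99998). The 3 comparisons with dTAG share libraries with the serum comparisons and are not independent of them.

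**Figure D2:**
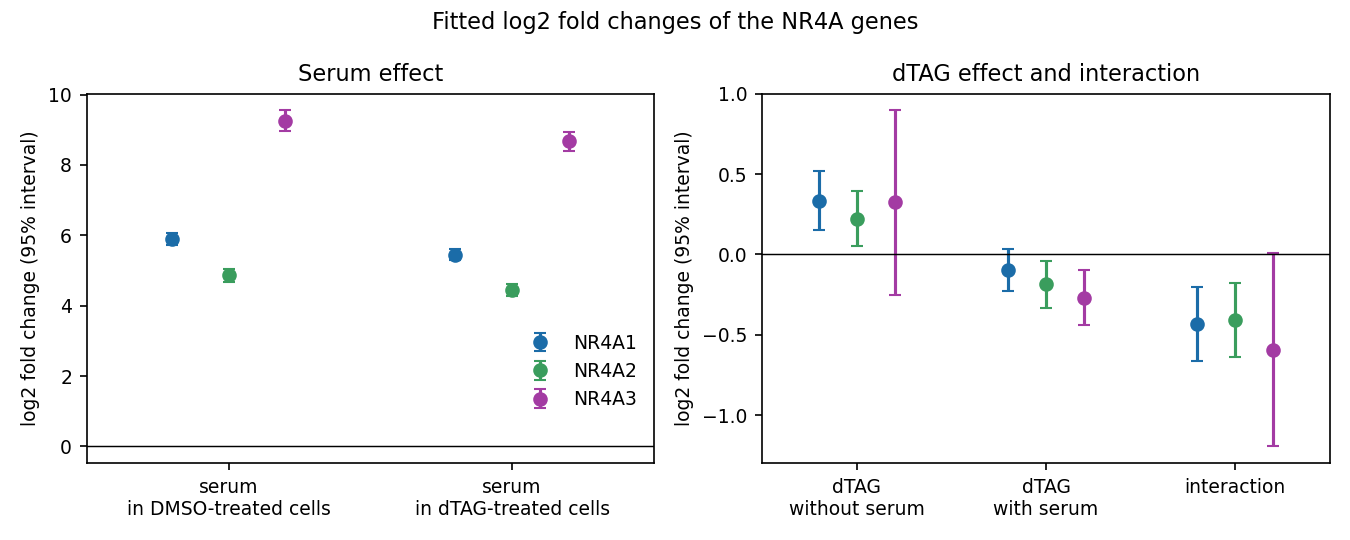
Fitted Log2FC of the 3 NR4A genes with 95% intervals (bars), for the effect of serum in DMSO- and dTAG-treated cells (left) and for the effect of dTAG without and with serum and the interaction (right, narrower axis). The serum values run from 4.45 to 9.26, and the dTAG values from -0.27 to 0.34.

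The make-up of the NR4A pool, as the share of each gene in the summed CPM per kb of span, does not depend on library scaling. It does depend on the length used, since per kb of exon NR4A3 (121 CPM) stood above NR4A1 (95.6) in DMSO-S30. In DMSO-S0 it was 84.8% ± 0.731 (SD, n = 3) NR4A2, 14.0% ± 0.684 NR4A1 and 1.20% ± 0.0688 NR4A3. In DMSO-S30 it was 60.7% ± 0.195 NR4A2, 20.8% ± 0.454 NR4A1 and 18.5% ± 0.322 NR4A3. NR4A2 thus differed by -24.1 percentage points, NR4A1 by 6.78 and NR4A3 by 17.3, and no library overlapped (exact permutation p = 0.1 each, the smallest possible, adjusted 0.15 over 12 tests). In each library the shares add up to the whole, so these differences and their tests are not independent of each other. In dTAG-treated cells the differences with serum were -22.6, 6.58 and 16.0 percentage points (exact permutation p = 0.1 each).

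Between dTAG-S30 and DMSO-S30 the share of NR4A3 differed by -1.28 percentage points, at 17.3% ± 0.994, and that of NR4A1 by 1.06 points, at 21.8% ± 0.521 (exact permutation p = 0.1 each, adjusted 0.15), while NR4A2 differed by 0.225 points (p = 0.9, exact permutation). Without serum the differences between dTAG and DMSO were 1.25, -1.30 and 0.0501 points for NR4A1, NR4A2 and NR4A3 (exact permutation p = 0.4, 0.4 and 0.9). In dTAG-S0 replicate 3 NR4A1 took 12.5% and NR4A3 1.65%, against 16.8% and 16.5% and against 0.908% and 1.20% in the other dTAG-S0 libraries.

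**Figure D3:**
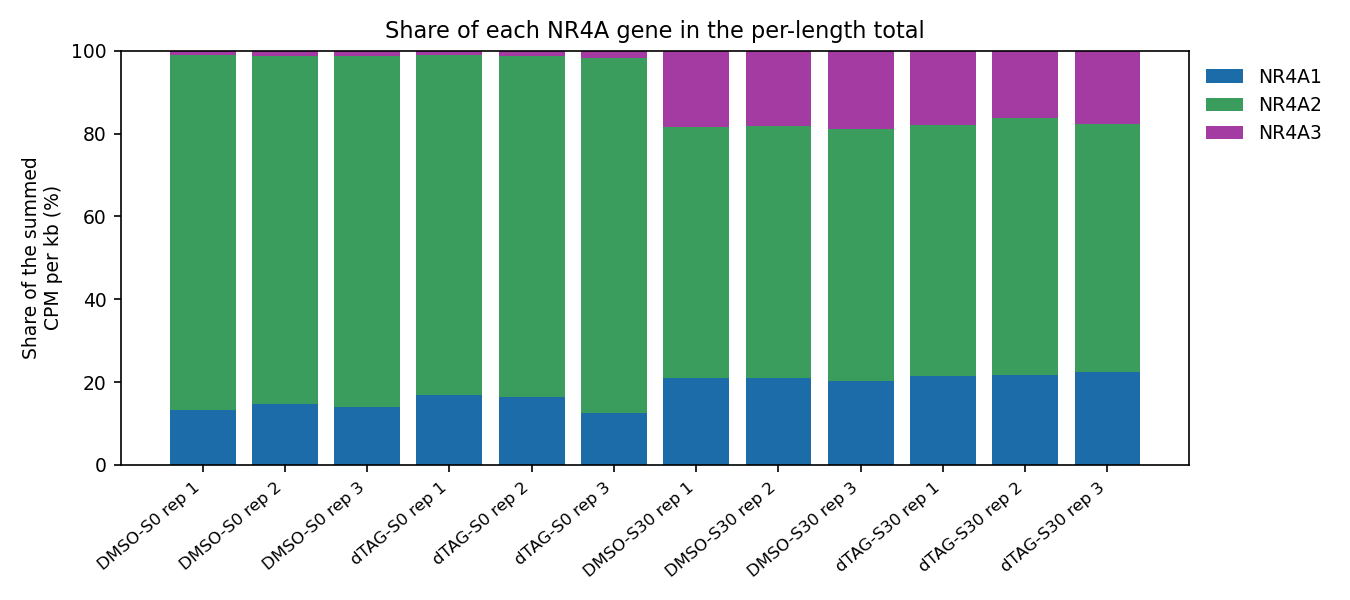
Share of each NR4A gene in the summed CPM per kb of gene span, in %, with 1 stacked bar per library. The 6 libraries without serum hold 82.3% to 85.9% NR4A2, and the 6 with serum 59.9% to 62.1%, with NR4A3 making up 16.1% to 18.9%.

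The 48 human nuclear receptor genes, the 3 members among them, were then listed, and 34 passed the count filter. With serum in DMSO-treated cells 8 of the 34 rose and 6 fell, against 9.39% and 17.9% of all genes tested. The median Log2FC of the 34 was -0.09 against -0.07 over all genes tested. The 3 largest rises were the NR4A genes. The other receptors were far from them: NR2F2 (COUP-TFII), an orphan receptor of vascular and mesenchymal development, rose by 0.97 (edgeR adjusted p = 2.40e-11), from 45.2 to 87.3 CPM, PPARD, a fatty acid sensor, by 0.39 (adjusted p = 6.80e-05), RARA, a retinoic acid receptor, by 0.25, NR3C1, the glucocorticoid receptor, by 0.22 and NR1D2, a circadian repressor, by 0.19. ESR2, oestrogen receptor beta, fell by 0.90 on the log2 scale (edgeR adjusted p = 0.00207), at 4.24 CPM in DMSO-S0 and 2.29 in DMSO-S30, and NR1H3, an oxysterol receptor, fell by 0.38. The remaining falls (NR3C2, NR6A1, NR2C1 and NR2C2) ran from -0.30 to -0.15 and were not called with TMM or ERCC scaling, which leave 2 falls. These 11 receptors other than the NR4A genes were named after their values were seen.

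In dTAG-treated cells 7 of the 34 receptors rose and 3 fell with serum, against 9.3% and 16.2% of all genes tested. NR2F2 rose by 0.92. For dTAG without serum, dTAG with serum and the interaction edgeR called 0 of 34 receptors each, where 1.47%, 1.25% and 0.0458% of all genes tested were called. Under an unadjusted p of 0.05 were 5, 4 and 2 of 34, against 1595, 1380 and 439 of all 13093 genes tested. DESeq2 called 1, 0 and 0 of 34.

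**Figure D4:**
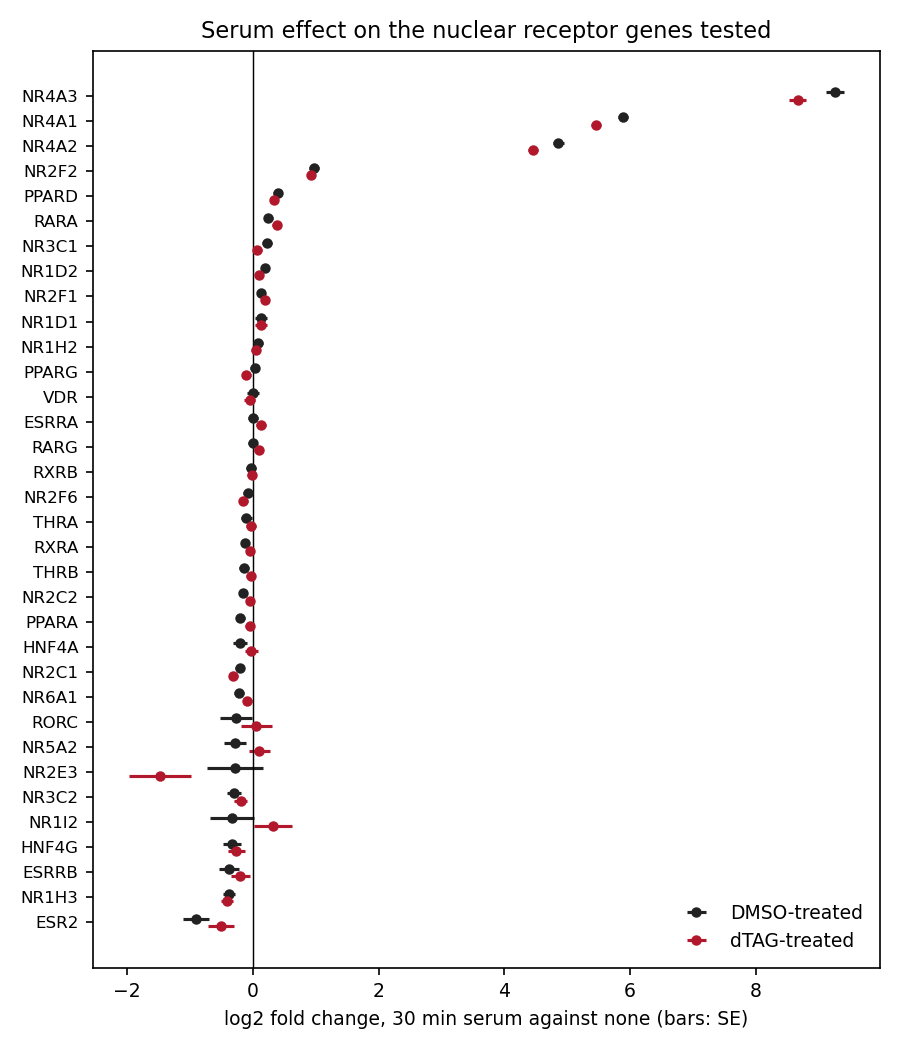
Log2FC for 30 min of serum against none in the 34 nuclear receptor genes tested, with bars for SE, in DMSO-treated (black) and dTAG-treated (red) cells. The 3 NR4A genes lie between 4.45 and 9.26, and the next receptor, NR2F2, at 0.97 and 0.92.

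Transcripts of NR4A partners and coregulators gave 1 call with serum in DMSO-treated cells, where 27.3% of all genes tested were called. Their median Log2FC there was -0.06 against -0.07 over all genes tested. Of 15 genes, which include the heterodimer partners RXRA and RXRB and BCL2, which binds NR4A1 at mitochondria, the gene called in DMSO-treated cells was NCOR1, a corepressor, which fell by 0.18 (edgeR adjusted p = 0.0210), a call lost with TMM and ERCC scaling. EP300, a histone acetyltransferase coactivator, had a Log2FC of -0.14 (adjusted p = 0.0795) and NCOA2, a steroid receptor coactivator, of -0.13 (adjusted p = 0.106). RXRA stood at 66.7 CPM in DMSO-S0 and 61.2 in DMSO-S30, and RXRB at 43.2 and 42.4. In the other 4 comparisons (serum in dTAG-treated cells, dTAG without serum, dTAG with serum, interaction) edgeR called 0 of 15. Of all genes tested edgeR called 25.5%, 1.47%, 1.25% and 0.0458% in that order. DESeq2 called 1, 0, 0 and 0 of 15. Under an unadjusted p of 0.05 were 1, 1, 0 and 0, against 4814, 1595, 1380 and 439 of all 13093 genes tested.

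The kinases that link serum to NR4A transcription (among them EGFR, the MEK and ERK kinases, p38, RSK and MSK kinases and protein kinase A) gave 1 call of 15 with serum in DMSO-treated cells. Of all genes tested 27.3% were called there, and the median Log2FC was 0.0019 for the list against -0.07 for all genes. MAPK14, which encodes p38 alpha, fell by 0.20 (edgeR adjusted p = 0.0126), a call also lost with TMM and ERCC scaling. EGFR, a growth factor receptor, had a Log2FC of 0.09 (edgeR adjusted p = 0.238). In the other 4 comparisons edgeR called 0 of 15, where 25.5%, 1.47%, 1.25% and 0.0458% of all genes tested were called, in the order above. Under an unadjusted p of 0.05 were 1, 2, 1 and 0 of 15, against 4814, 1595, 1380 and 439 of all 13093 genes tested. DESeq2 called 1, 0, 0 and 0 of 15. These are transcript levels, and the activity of a kinase was not measured.

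Factors known to act at NR4A promoters included several that responded to serum themselves. In DMSO-treated cells 6 of 18 rose and 1 fell, where 9.39% of all genes tested were called higher and 17.9% lower. The list median Log2FC was -0.005 against -0.07 over all genes tested. SRF, which binds CArG boxes of IEGs, rose by 2.72 ± 0.0748 (SE, edgeR adjusted p = 2.57e-21), CREM, whose gene also yields the repressor ICER, by 1.82 ± 0.0890 (edgeR adjusted p = 1.64e-15), and MEF2D, which acts at the NR4A1 promoter in T cells, by 1.68 ± 0.0745 (edgeR adjusted p = 1.72e-16). HDAC5, a repressor of MEF2, rose by 0.79, ELK1 by 0.21 and CREB1 by 0.17, and the CREB coactivator CRTC3 fell by 0.29 on the log2 scale. ELK1, CREB1 and CRTC3 were not called with ERCC scaling, and these 3 genes and HDAC5 were named after their values were seen. In dTAG-treated cells SRF, CREM, MEF2D and HDAC5 rose and none fell, where 9.3% of all genes tested were called higher and 16.2% lower. With dTAG edgeR called 0 of 18 without serum, with serum and for the interaction, where 1.47%, 1.25% and 0.0458% of all genes tested were called. Under an unadjusted p of 0.05 were 4, 5 and 3 of 18, against 1595, 1380 and 439 of all 13093 genes tested. DESeq2 called 0 of 18 in each.

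Other IEGs known, like the NR4A genes, as CREB targets also rose with serum. Of 13 listed, 12 were tested and all 12 rose with serum in both treatments, where 9.39% (DMSO) and 9.3% (dTAG) of all genes tested were called higher. The list median Log2FC was 2.98 in DMSO-treated and 2.63 in dTAG-treated cells, against -0.07 and -0.06 over all genes tested. FOS rose by 6.48 in DMSO-treated cells and FOSB, another AP-1 subunit, by 6.41, while DUSP1, a MAP kinase phosphatase, rose by 4.40. The NR4A1 value of 5.89 thus lay below those of FOS and FOSB, and that of NR4A3, at 9.26, above all 12. With dTAG and serum 2 of 12 fell, where 0.642% of all genes tested were called lower. FOS fell by 0.32 on the log2 scale (edgeR adjusted p = 0.0111) and BTG2, an antiproliferative factor, by 0.31 (edgeR adjusted p = 0.00698). With ERCC scaling 0 of 12 were called, and the list median in the reported fit was -0.22. The NR4A values in that comparison, -0.10, -0.19 and -0.27, lay on either side of this median and were not called. Without serum edgeR called 0 of 12 for dTAG (5 at an unadjusted p under 0.05, 0 by DESeq2, median 0.08). Of all 13093 genes tested 1.47% were called there and 1595 had an unadjusted p under 0.05 (median -0.007). For the interaction edgeR called 0 of 12 (5 unadjusted, 1 by DESeq2, median -0.26), against 0.0458% of all genes tested (439 unadjusted, median 0.003).

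Of 13 genes known as targets of NR4A proteins in other tissues, most of them steroidogenic, dopaminergic or gluconeogenic, 12 failed the count filter. VEGFA, an angiogenic growth factor, was the exception. It rose by 0.60 ± 0.0773 (SE) with serum in DMSO-treated cells (edgeR adjusted p = 8.39e-07) and by 0.54 in dTAG-treated cells. It also rose with dTAG, by 0.38 without serum (edgeR adjusted p = 0.00556) and by 0.32 with serum (edgeR adjusted p = 0.0207, lost with ERCC scaling), from 38.1 to 49.4 CPM and from 57.5 to 72.0 CPM. Its interaction was -0.06.

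The genes whose pattern was most like that of each NR4A gene were found by Pearson's r of log2 CPM over the 12 libraries, which fall into 2 clusters by serum, so that r mostly reflects that split and is a description. Among genes outside the group DUSP5, an ERK phosphatase, was nearest to all 3, with r of 0.999 to NR4A1 and to NR4A3 and of 0.9995 to NR4A2. FOSL1, an AP-1 subunit, and DUSP1 followed for NR4A1, ATF3, a stress-response factor, and AREG, an EGFR ligand, for NR4A2, and ATF3 and PTGER4, a prostaglandin receptor, for NR4A3, with r from 0.998 to 0.999. Between the NR4A genes r was 0.998 to 0.999. By the distance of the 4 group means to the mean of the 3 NR4A genes, the nearest were FOS (0.303), FOSB (0.312) and CCN1, a matricellular protein (0.380), all nearer than the NR4A genes themselves (0.75 to 2.51), since those differ in the size of their rise.

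With dTAG these like genes differed among themselves. DUSP5 was higher without serum (Log2FC 0.30 ± 0.0623, edgeR adjusted p = 0.00801) and had -0.14 with serum (adjusted p = 0.372) and an interaction of -0.44 (edgeR adjusted p = 0.0641). ATF3 had 0.29 without serum (adjusted p = 0.126), fell by 0.40 with serum (edgeR adjusted p = 0.000771) and was called for the interaction, at -0.69 ± 0.113 (edgeR adjusted p = 0.00518). FOSL1, DUSP1 and AREG had positive values without serum and negative ones with serum, none of them called, as had NR4A1, NR4A2 and NR4A3. PTGER4 had -0.04 and -0.01. FOS, FOSB and CCN1 were negative in both states, and with serum FOS and CCN1 fell (-0.32 and -0.30, edgeR adjusted p = 0.0111 and 0.00927).

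**Figure D5:**
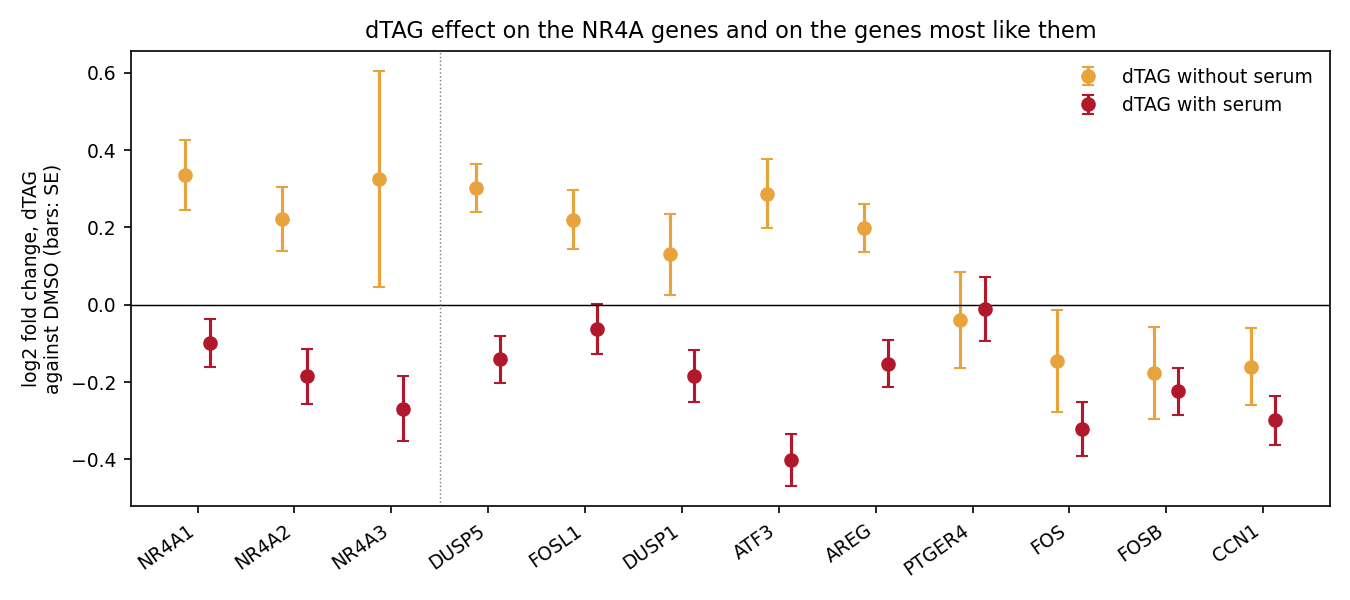
Log2FC of dTAG against DMSO without serum (orange) and with serum (red), with bars for SE, in the 3 NR4A genes and, right of the dotted line, the 9 genes most like them. The NR4A genes have 0.22 to 0.34 without serum and -0.27 to -0.10 with serum, and ATF3 runs from 0.29 to -0.40.

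The 12 libraries held 20537682 to 26278707 counts, of which 7.97% to 9.37% were ERCC spike-ins. TRIM28, whose product the tag removes as protein, ranged from 85.5 to 120 CPM and its transcript did not pass the test for dTAG (Log2FC -0.06 without and -0.05 with serum, edgeR adjusted p = 0.781 and 0.863), so its transcript gives no check of the depletion. Of 10 colorectal epithelial markers 6 were over 1 CPM (EPCAM, CDH1, KRT8, KRT18, KRT19 and CDX2) and CEACAM5 and TFF3 were at 0, and the sum ran from 1154 to 1206 CPM in DMSO-S0, 1323 to 1420 in DMSO-S30, 1177 to 1326 in dTAG-S0 and 1381 to 1580 in dTAG-S30. Of 10 immune, endothelial and fibroblast markers 2 were over 1 CPM (VWF and COL1A1), with sums of 17.2 to 18.4, 83.1 to 88.8, 14.7 to 17.7 and 69.1 to 80.2 CPM in the same order. With serum in DMSO-treated cells COL1A1 rose by 2.48, and of the epithelial markers KRT19 rose by 0.39, KRT18 by 0.35, KRT8 by 0.30 and CDH1 by 0.17. With dTAG and serum, where the NR4A genes were lower without being called, CDH1 rose by 0.24 (edgeR adjusted p = 0.0455). The part of these markers in the NR4A values was not tested. In bulk libraries a change in RNA per cell and a change in which cells contribute cannot be told apart.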

How the data were processed

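The deposited values were raw read counts per protein-coding gene and ERCC transcript. The authors trimmed paired reads (Trim Galore 0.6.4), mapped them to hg38 with STAR and counted them with featureCounts (Subread 1.6.3) over whole genes, introns included. Counting introns adds unspliced RNA, which weighs more in a gene whose transcription has just begun. How reads mapping to several places were treated is not given in the sources used here. PCR copies and separate molecules look alike in such counts. Start positions, counted from 0 in the table, are given from 1.

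Counts were scaled by the upper quartile with 1 factor of unwanted variation from 69 ERCC transcripts, and all 4 groups were fitted together in edgeR 4.0.16 (R 4.3.3, two-sided quasi-likelihood F-test). P-values were adjusted by Benjamini-Hochberg over the 13093 genes tested, and 6808 genes were left out by the count filter. SE is the Log2FC divided by the square root of F. CPM use the scaled library size. Named genes were the 3 members, the 3 most like each by r (mean of at least 50 counts, prior count 2) and the 3 nearest by distance, and from each list up to 3 with the largest serum effect plus any called with dTAG. A gene that this rule names is not reported here. The members and lists were chosen with earlier results of these data known. The scripts were tested on simulated data. Alternatives covered scaling, ERCC factors, count filter, test (DESeq2 1.42.0 among them), a replicate block, length and each library left out. Replicates differed beyond sampling noise (chi-square per degree of freedom 3.02 to 9.80).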

Additional observations from a re-analysis of the deposited data

Results flagged for a closer look

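NR4A1 and NR4A2 were picked out because all 3 dTAG libraries were above all 3 DMSO libraries without serum and below all 3 with serum. Of all genes tested 8.5% met the first condition and 8.1% the second, and genes meeting both were not counted. The interaction was -0.43 for NR4A1 (edgeR adjusted p = 0.397) and -0.41 for NR4A2 (edgeR adjusted p = 0.492), so it did not pass the threshold over all genes. Its unadjusted p ranked 22 and 28 of 13093. It uses the same libraries that picked the genes out, so it is not separate evidence. Groups of 3 libraries were not tested for outlying samples.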

How the results depend on the processing

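All 3 NR4A genes were called higher with serum under every alternative run, and of 312 values of the members 298 kept direction and call, 13 passed the threshold where the reported fit did not, and 1 changed sign. NR4A1 for dTAG without serum (reported 0.34, adjusted p = 0.0614) had 0.34 with TMM (edgeR adjusted p = 0.0493), with upper quartile and no ERCC factor (0.0431), with the likelihood ratio test (0.0239) and with DESeq2 (0.0163), and 0.33 with no count filter (0.0220), over alternatives with adjusted p from 0.0163 to 0.190. NR4A3 for dTAG with serum had -0.31 with 2 ERCC factors (0.0275) and -0.28 with no filter (0.00407), in a range from 0.00407 to 0.633, and the NR4A2 interaction had -0.41 with no filter (0.0340), in a range to 0.9998. The cause was not tested.

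Leaving out single libraries gave, for serum in DMSO- and dTAG-treated cells, 5.85 to 5.91 and 5.40 to 5.52 for NR4A1, 4.80 to 4.89 and 4.37 to 4.56 for NR4A2, and 9.19 to 9.32 and 8.47 to 9.05 for NR4A3. For dTAG without serum, with serum and the interaction it gave 0.27 to 0.39, -0.13 to -0.05 and -0.50 to -0.37 for NR4A1, 0.11 to 0.31, -0.24 to -0.13 and -0.49 to -0.29 for NR4A2, and -0.055 to 0.52, -0.43 to -0.19 and -0.81 to -0.21 for NR4A3. Calls gained were NR4A1 without DMSO-S30 replicate 1 (0.34, edgeR adjusted p = 0.0307) and NR4A2 without dTAG-S0 replicate 2 (0.31, 0.0489), both for dTAG without serum, and NR4A3 for dTAG with serum without DMSO-S0 replicate 1 (-0.27, 0.0422), DMSO-S30 replicate 1 (-0.30, 0.0458) or dTAG-S30 replicate 1 (-0.43, 0.0143). Without dTAG-S0 replicate 3 the NR4A3 effect of dTAG without serum was -0.055 (edgeR adjusted p = 0.988) and its share differed by -0.148 points (range -0.148 to 0.221). Without dTAG-S30 replicate 2 the NR4A2 share with dTAG and serum differed by -0.390 points (range -0.390 to 0.740).

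Genes called numbered 3572, 3339, 193, 164 and 6 in the 5 comparisons in the order above. They numbered 1766, 1646, 76, 66 and 3 with ERCC library sizes, and for the dTAG comparisons and the interaction 310, 277 and 16 with the likelihood ratio test and 315, 287 and 24 with no filter, with 14 for the interaction by DESeq2. Single libraries left out gave 2656 to 3797, 2129 to 4009 (lowest without dTAG-S30 replicate 3), 69 to 304 (lowest without dTAG-S0 replicate 3), 98 to 267 and 4 to 9. Called genes were higher with serum in 34.4% (DMSO) and 36.4% (dTAG), against 61.4% and 61.3% with TMM and 66.5% and 62.5% with ERCC sizes, and for dTAG without serum in 65.3% against 80.3% with ERCC sizes.

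The numbers of the replicates showed no clear pairing of the libraries. Same-numbered libraries had correlations of deviations from -0.153 to 0.139 (median 0.033), and differently numbered libraries from -0.199 to 0.256 (median -0.0002). Of 12 libraries 5 correlated best with their own number. With the replicate block 205 genes were called for dTAG without serum and no call of the NR4A genes changed. Of 624 list counts 66 moved by over 1.5 times. Depth limits NR4A3 without serum most, at 22 to 53 counts.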
